A study of Homo sapiens with 15 samples.

Results

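The 9 genes described here belong to the retinoic acid pathway and were followed while H1 cells, a line of human embryonic stem cells, were driven towards heart. They are all the rows of the bulk RNA sequencing table whose gene symbol was CYP26A1, CYP26B1, DHRS3, RARA, RARB, RARG, STRA6, CRABP1 or CRABP2, so 9 of 60605 genes. The rule itself uses no measured value, but the members were chosen with earlier results of these data known. The study asked how passaging of mesendoderm progenitors bears on the fate they take, and sequenced 15 libraries, 1 for each condition. Libraries of Day 0, Day 1 and Day 2 are shared by all arms, and 3 arms (NP-ctrl, NP-IWP2 and passaged) were each sequenced once on Day 3, Day 5, Day 7 and Day 10. All cells were wild-type H1. Those of Day 1 and later had been exposed to CHIR-99021, a small molecule that activates WNT signalling, applied on Day 0. Insulin followed on Day 1. The paper does not state whether the Day 0 library was taken before CHIR-99021. NP-ctrl cells were left unpassaged with no further inducer. NP-IWP2 cells were also left unpassaged and received IWP2, which blocks the secretion of WNT proteins, after Day 2 for a limited time, so that the later libraries were taken after it was withdrawn. Passaged cells were detached with EDTA on Day 2, split and plated again at a lower density, also with no inducer. The study's methods name Y27632, an inhibitor of the kinase ROCK, among the reagents used when cells are passaged. The paper also reports that its later differentiations all included Y27632. Detachment, density and reagents cannot be told apart in this arm. The line is 1 genotype and the cultures are 1 series, so no level below has a replicate, and every interval covers counting error only.

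Retinoic acid is made from vitamin A. Retinol enters cells through the receptor STRA6, is oxidised to retinaldehyde by retinol dehydrogenases such as RDH10, and is oxidised further to retinoic acid by the ALDH1A enzymes. DHRS3 runs the first step backwards, and the CYP26 enzymes break retinoic acid down. CRABP1 and CRABP2 carry retinoic acid inside the cell, and the receptors RARA, RARB and RARG bind DNA together with RXR partners and turn transcription on when the ligand is bound. In the embryo the pathway is known for patterning the trunk along its axis, for setting the posterior limit of the heart field and for the growth of the atria and the epicardium. CYP26A1, DHRS3, RARB and STRA6 are themselves known as genes that retinoic acid can induce.

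The first feature to show is a repeat in the promoters of RARB and CYP26A1. It was not found for the other 7 members in the windows searched. RARB and CYP26A1 had the widest fitted changes of the members in passaged cells against NP-ctrl, in opposite directions, and a link of these to the repeat was not tested. The letters searched for were a direct repeat of the receptor hexamer with a spacer of 5 bases (DR5), on both strands, in windows from 250 bases before to 50 bases after each RefSeq transcript start. The hexamer AGGTCA was accepted, as was AGTTCA, and so were GGGTCA as a further form and GGTTCA as the last, in any pairing. Capitals mark the repeat with its spacer, both lines are written 5′ to 3′ on the strand of the gene, and each shows 30 bases of a longer window.
RARB: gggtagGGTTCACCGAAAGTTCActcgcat
CYP26A1: taaagaTGAACTTTGGGTGAACTaattgtc
The sequences are from RefSeq on GRCh38.p14. The RARB stretch lies at chr3:25428204-25428233 on the plus strand with the repeat 53 to 37 bases before the start, read forward as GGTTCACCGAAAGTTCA. The CYP26A1 stretch lies at chr10:93073797-93073826, also on the plus strand, with the repeat 90 to 74 bases before the start, and its hexamers are read on the opposite strand as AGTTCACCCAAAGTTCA. In the gene annotation (GENCODE release 44) both repeats lie inside the gene and overlap an exon and a UTR of some transcript, but no coding sequence. All 9 members had a promoter in the RefSeq table, with 21 promoters between them, and 2 of the 21 held a DR5. Among all 35116 promoters of the same length, 31 did, which is 0.0883%. Repeats spaced by 1 base (DR1, 0.131% of promoters) or by 2 bases (DR2, 0.0399%) were in none of the 21, and none of the 74 promoters of 45 other retinoid genes held a DR5. These are matches of letters. Binding was not measured here.

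Total counts ranged from 13254723 to 20250115 per library, and between 26241 and 30269 genes were above 0. Mitochondrial genes took 1.53% of counts in passaged cells on Day 3 and 10.3% in passaged cells on Day 10, the lowest and highest shares, and the part of this in the values below was not tested. Positions of genes are those of the deposited table, on GRCh38. Levels are FPKM, that is counts adjusted for gene length and library depth. All 9 members reached an FPKM of 1 or more somewhere among the libraries, the minimum for a gene to be tested. CYP26B1 did so through passaged Day 3 alone. The starting cells carried the markers of pluripotent cells that their label implies, with 6 of 6 at an FPKM of at least 1 and a summed level of 1226 on Day 0. In bulk samples, fewer cells of a type and less RNA per cell cannot be told apart.

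**Figure D1:**
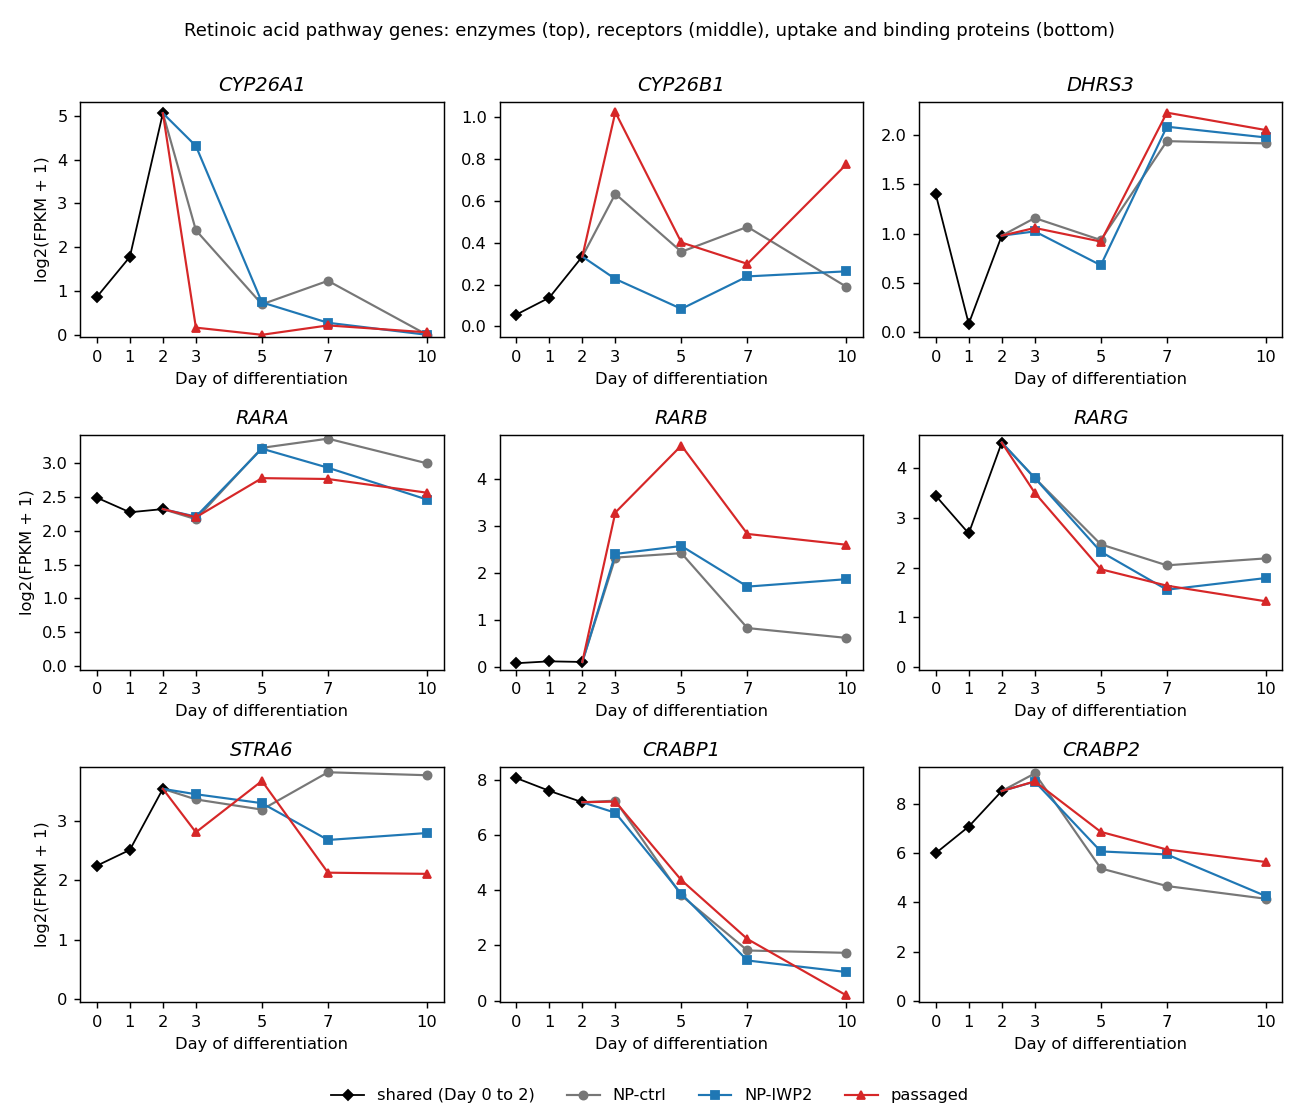
Levels of the 9 members as log2(FPKM + 1) against day of differentiation, 1 point per library, with the shared libraries in black and the arms in grey (NP-ctrl), blue (NP-IWP2) and red (passaged); each arm's line starts at the shared Day 2 library. CYP26A1 peaks at an FPKM of 32.4 on Day 2 and RARB at 25.3 in passaged cells on Day 5. CRABP1 and CRABP2 stand lower from Day 5 on than on Day 3 in every arm.

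Of the enzymes, CYP26A1 had the widest range. It is the main retinoic acid hydroxylase of the early embryo (ENSG00000095596, chr10:93073475-93077885, plus strand). Its FPKM was 0.82, 2.43 and 32.4 on Day 0, Day 1 and Day 2. Its Day 3 level was 4.23 (NP-ctrl), 18.9 (NP-IWP2) and 0.12 (passaged). The arms were thus ordered with NP-IWP2 highest and passaged cells close to nothing, 1 day after they had been divided from the same culture. On Day 5 the level was 0.62 (NP-ctrl), 0.67 (NP-IWP2) and 0 (passaged), by Day 7 it stood at 1.35, 0.21 and 0.16, and by Day 10 it stood at 0, 0 and 0.04.

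In ratios of single libraries, Day 2 was 13.3-fold above Day 1 for CYP26A1 (95% interval 11.1 to 16). From Day 2 to Day 3 it was lower by 1.72-fold in NP-IWP2 (1.58 to 1.87), by 7.64-fold in NP-ctrl (6.61 to 8.87) and by 262-fold in passaged cells (112 to 809). That last value compares 5 counts with 1942. Within Day 3, passaged cells were 34.3-fold below NP-ctrl (14.5 to 107) and 153-fold below NP-IWP2 (65.2 to 472), and NP-IWP2 was 4.45-fold above NP-ctrl (3.81 to 5.22). With 0 counts in passaged cells on Day 5, they stood at least 9.42-fold below NP-ctrl, taking 3 counts in that library as the limit. On Day 10 all arms were at or under 3 counts, and no fold is given.

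The low CYP26A1 of passaged cells on Day 3 went with low markers of the primitive streak and early mesoderm (TBXT, MIXL1, EOMES, MESP1, MESP2 and TBX6). Their summed FPKM was 670 on Day 2 and, on Day 3, 148 (NP-ctrl), 222 (NP-IWP2) and 14.1 (passaged), with 6 of 6 markers at an FPKM of at least 1 and none at 0 counts in each of these libraries. The part of this in the CYP26A1 difference was not tested.

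CYP26B1, a second hydroxylase of retinoic acid (ENSG00000003137, chr2:72129238-72147862, minus strand), was low throughout. Its FPKM was 0.04, 0.1 and 0.26 on Day 0, Day 1 and Day 2. Its Day 3 level was 0.55 (NP-ctrl), 0.17 (NP-IWP2) and 1.03 (passaged), on Day 5 0.28, 0.06 and 0.32, on Day 7 0.39, 0.18 and 0.23, and on Day 10 0.14, 0.2 and 0.71. Passaged cells were above NP-IWP2 on each of the 4 days and above NP-ctrl on 3 of them. Its Day 3 order was the reverse of that of CYP26A1, with passaged cells highest and NP-IWP2 lowest. The passaged library held 68 counts on Day 3, 6.1-fold above NP-IWP2 (3.2 to 12.8) and 1.88-fold above NP-ctrl (1.26 to 2.82). On Day 10 it held 52 counts, 5.11-fold above NP-ctrl (2.5 to 11.8). The third CYP26 gene, CYP26C1, never exceeded an FPKM of 0.15 and was not tested.

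DHRS3, which reduces retinaldehyde back to retinol (ENSG00000162496, chr1:12567910-12618210, minus strand), was the member on which the arms differed least on the log2(FPKM + 1) scale. Its FPKM was 1.64, 0.06 and 0.97 on Day 0, Day 1 and Day 2. On Day 3 the NP-ctrl, NP-IWP2 and passaged libraries were at 1.23, 1.03 and 1.08, on Day 5 at 0.91, 0.6 and 0.89, on Day 7 at 2.83, 3.24 and 3.68, and on Day 10 at 2.77, 2.93 and 3.14. The level was thus higher from Day 7 on in all arms, and of the 12 differences between arms on the same day only passaged against NP-ctrl on Day 7 lay outside counting error, at 1.3-fold (1.04 to 1.63). From Day 5 to Day 7 it was higher by 3.12-fold in NP-ctrl (2.24 to 4.41), 5.37-fold in the NP-IWP2 arm (3.63 to 8.18) and 4.12-fold after passaging (2.99 to 5.77). The Day 1 library held 4 counts against 98 on Day 0, which is 26.6-fold lower (10.1 to 99.6).

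The receptors divided by time. RARG (ENSG00000172819, chr12:53210567-53232980, minus strand), the receptor known for its place in early embryonic cells, held most of the summed receptor level at first, with 67.9% of the FPKM of the 3 receptor genes on Day 0 and 84.3% on Day 2. Its FPKM was 9.9, 5.44 and 21.9 on Day 0, Day 1 and Day 2. Its Day 3 level was 13 (NP-ctrl), 12.9 (NP-IWP2) and 10.3 (passaged), on Day 5 4.53, 3.99 and 2.91, on Day 7 3.13, 1.94 and 2.11, and on Day 10 3.55, 2.46 and 1.5. NP-ctrl was the highest arm on each of the 4 days, although by less than counting error over NP-IWP2 on Day 3 and Day 5. Day 2 was 4.02-fold above Day 1 (3.65 to 4.44). Between Day 3 and Day 5 RARG was lower in each arm, by 2.86-fold in NP-ctrl (2.54 to 3.23), 3.25-fold in the NP-IWP2 arm (2.84 to 3.72) and 3.55-fold after passaging (3.06 to 4.14). The gap between passaged cells and NP-ctrl was 1.25-fold on Day 3 (1.14 to 1.38) and 2.37-fold on Day 10 (1.89 to 2.98).

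RARA, the most broadly expressed receptor of the family (ENSG00000131759, chr17:40309180-40357643, plus strand), stayed within a narrow range, from an FPKM of 3.5 to 9.26. It was 4.61, 3.83 and 3.99 on Day 0, Day 1 and Day 2. On Day 3 NP-ctrl, NP-IWP2 and passaged cells were at 3.5, 3.62 and 3.59, without a difference outside counting error. By Day 5 they were at 8.34, 8.26 and 5.85, which is higher than on Day 3 by 2.38-fold (2.06 to 2.76), 2.28-fold (1.95 to 2.67) and 1.63-fold (1.39 to 1.92). On Day 7 they were at 9.26, 6.62 and 5.79, and on Day 10 at 6.97, 4.5 and 4.9. RARA made up 70.3% of the summed receptor level in NP-ctrl on Day 7, its highest share. A noncoding gene on the opposite strand, RARA-AS1, reached at most 48 counts where RARA reached 620.

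RARB (ENSG00000077092, chr3:25174332-25597932, plus strand), which encodes a receptor and is itself a classic target of retinoic acid, was close to nothing until the arms were divided, and then separated them more than any other receptor gene. Its FPKM was 0.06, 0.09 and 0.08 on Day 0, Day 1 and Day 2, from 4 to 6 counts. Its Day 3 level was 4.03 (NP-ctrl), 4.31 (NP-IWP2) and 8.78 (passaged). On Day 5 these libraries were at 4.37, 4.97 and 25.3, on Day 7 at 0.78, 2.28 and 6.13, and on Day 10 at 0.54, 2.66 and 5.08. Passaged cells were highest and NP-ctrl lowest on each of the 4 days.

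From Day 2 to Day 3, RARB was higher by 50.3-fold in NP-ctrl (22.8 to 138), 53.8-fold in the NP-IWP2 arm (24.3 to 148) and 110-fold after passaging (49.9 to 300). Passaged cells exceeded NP-ctrl by a ratio of 2.18 at Day 3 (1.86 to 2.56), 5.78 at Day 5 (5.06 to 6.64), 7.91 at Day 7 (5.65 to 11.4) and 9.37 at Day 10 (6.31 to 14.5). The ratio of NP-IWP2 to NP-ctrl was 1.07 on Day 3 (0.886 to 1.29) and 1.14 on Day 5 (0.954 to 1.36), so within counting error, and then 2.93 on Day 7 (2.03 to 4.32) and 4.91 on Day 10 (3.25 to 7.69). Passaged cells were 2.04-fold above NP-IWP2 at Day 3 (1.73 to 2.41), 5.08-fold at Day 5 (4.45 to 5.82), 2.7-fold at Day 7 (2.2 to 3.31) and 1.91-fold on Day 10 (1.56 to 2.33). Passaged cells thus stood above NP-ctrl from Day 3 on, and NP-IWP2 from Day 7 on. RARB was 74.3% of the summed receptor level in passaged cells on Day 5, and by Day 10 it stood at 44.3% there against 4.88% in NP-ctrl. The cardiomyocyte markers TNNT2, MYH6, MYL7, ACTN2, NKX2-5 and TTN had the order of RARB on the later days, with a summed FPKM of 560 (NP-ctrl), 2058 (NP-IWP2) and 2721 (passaged) on Day 7 and 431, 1365 and 3308 on Day 10, 6 of 6 at an FPKM of at least 1 and none at 0 counts in each. On Day 5, where passaged cells had most RARB, these sums were 403, 532 and 462. MYL7 was the largest part of each, at 379, 480 and 204. NKX2-5 (1.31, 7.8 and 110), MYH6 (1.98, 13.1 and 120), TNNT2 and TTN had the order of RARB on Day 5, whereas MYL7 and ACTN2 did not. The part of the cardiomyocyte markers in the RARB difference was not tested.

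**Figure D2:**
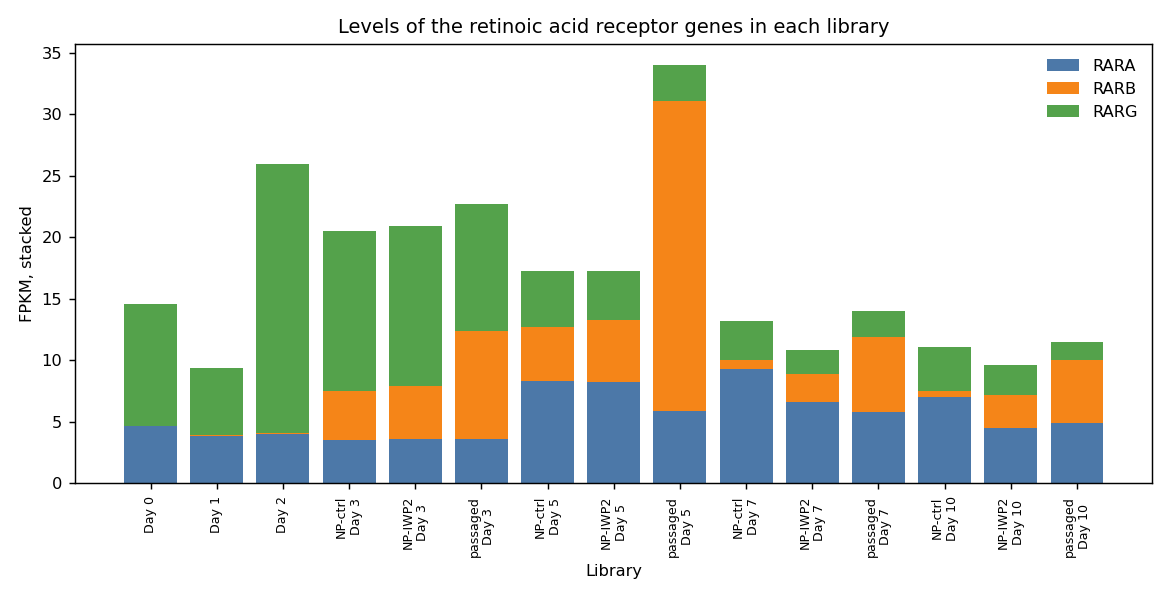
FPKM of RARA, RARB and RARG stacked for each of the 15 libraries, in order of day. The green RARG part is largest on Day 2, and the orange RARB part is largest in passaged cells on Day 5, where the 3 genes sum to an FPKM of 34.

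STRA6, the membrane receptor that takes up retinol from its carrier RBP4 (ENSG00000137868, chr15:74179466-74212267, minus strand), was present in every library. Its FPKM was 3.74, 4.7 and 10.6 on Day 0, Day 1 and Day 2. Its Day 3 level was 9.27 (NP-ctrl), 9.91 (NP-IWP2) and 6 (passaged), and by Day 5 it stood at 8.12, 8.83 and 11.7. On Day 7 the order had changed to 13.1, 5.4 and 3.37, and by Day 10 it stood at 12.6, 5.94 and 3.31. Passaged cells were thus above NP-ctrl on Day 5 and below it on the other days. They were 1.45-fold above NP-ctrl on Day 5 (1.33 to 1.57), then 3.89-fold below on Day 7 (3.47 to 4.37) and 3.82-fold below on Day 10 (3.4 to 4.29). NP-IWP2 was also below NP-ctrl on these later days, by 2.43-fold (2.21 to 2.67) and 2.13-fold (1.94 to 2.33).

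The order of STRA6 on Day 7 and Day 10 was also that of the summed markers of stroma (COL1A1, COL3A1, POSTN, PDGFRB, LUM and DCN), of epicardium and mesothelium (WT1, TBX18, TCF21, UPK3B, BNC1 and KRT19) and of hepatic endoderm (AFP, APOA1, APOA2, APOB, ALB and HNF4A). The summed FPKM of stroma was 3986 (NP-ctrl), 1143 (NP-IWP2) and 415 (passaged) on Day 7, and 4066, 1063 and 91.5 on Day 10, with 5 or 6 of the 6 markers at an FPKM of at least 1 and none at 0 counts in these libraries. Within it POSTN on Day 7 had another order, at 0.74 (NP-IWP2) and 2.97 (passaged). The epicardial sum was 410 (NP-ctrl), 273 (NP-IWP2) and 148 (passaged) on Day 7 and 325, 176 and 34.4 on Day 10, with 6, 6 and 1 of 6 at an FPKM of at least 1 on both days, TCF21 at 0 counts in passaged cells and TBX18 highest in NP-IWP2. KRT19 was the largest part of this sum, at 343, 227 and 146 on Day 7 and 203, 84.2 and 33.7 on Day 10. It was already at 465 in NP-ctrl and 443 in passaged cells on Day 3, with WT1 at 0 counts. The hepatic sum was 624, 283 and 17.3 on Day 7, with 5, 6 and 2 of 6 at that level and AFP at 0 counts in passaged cells, and its Day 10 values are given with RBP4. The part of these in the STRA6 difference was not tested. CCDC33, which overlaps STRA6 on the opposite strand, reached at most 177 counts where STRA6 reached 1650, and without a stated strand setting their reads cannot be told apart where they overlap.

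CRABP1, a cytoplasmic carrier of retinoic acid (ENSG00000166426, chr15:78340353-78348225, plus strand), was highest in the starting cells. Its FPKM was 265, 192 and 144 on Day 0, Day 1 and Day 2. The Day 3 level was 150 (NP-ctrl), 110 (NP-IWP2) and 146 (passaged), and by Day 5 it stood at 13, 13.6 and 19.5. By Day 7 it stood at 2.52, 1.74 and 3.69, and on Day 10 2.32, 1.05 and 0.14. Each arm was thus far lower on Day 5 than on Day 3, by 11.5-fold in NP-ctrl (9.96 to 13.4), 8.13-fold in the NP-IWP2 arm (6.97 to 9.54) and 7.48-fold after passaging (6.61 to 8.5). The passaged library of Day 10 held 2 counts against 30 in NP-ctrl, which by counting error places it from 4.3-fold to 146-fold below.

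CRABP2, the carrier that hands retinoic acid to its receptors in the nucleus (ENSG00000143320, chr1:156699606-156705816, minus strand), was the member with the highest level of all. Its FPKM was 62.4, 133 and 363 on Day 0, Day 1 and Day 2, and by Day 3 it stood at 596 (NP-ctrl), 474 (NP-IWP2) and 477 (passaged). By Day 5 it stood at 40.3, 65.7 and 114, on Day 7 24.2, 60.2 and 69.3, and on Day 10 16.6, 18 and 48.5. Passaged cells were highest and NP-ctrl lowest from Day 5 on, the order of the cardiomyocyte markers on Day 7 and Day 10, whose part in this was not tested, whereas NP-ctrl was highest on Day 3. Passaged cells were 1.25-fold below NP-ctrl on Day 3 (1.21 to 1.29) and then above it by 2.84-fold on Day 5 (2.6 to 3.1), 2.87-fold on Day 7 (2.54 to 3.24) and 2.92-fold on Day 10 (2.52 to 3.38). The step between Day 3 and Day 5 was 14.8-fold down in NP-ctrl (13.7 to 16) and 4.17-fold down in passaged cells (3.96 to 4.39). The ratio of CRABP2 to CRABP1 in FPKM went from 0.236 on Day 0 to 2.52 on Day 2, and was above 1 in every later library.

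The next comparison is of the members as a group over time, counting a gene as past the fold where log2(FPKM + 1) differed by at least 1 between a pair of libraries. This scale understates the change of low genes such as CYP26B1. From Day 0 to Day 1, 2 of 9 members were past the fold against 6.74% of the 21206 genes tested, with CRABP2 higher and DHRS3 lower. From Day 1 to Day 2, 4 of 9 were past it against 7% of all genes, and CYP26A1, RARG, STRA6 and CRABP2 were all higher on Day 2. From Day 2 to Day 3 the members past it were CYP26A1 and RARB in NP-ctrl (2 of 9 against 8.71%), RARB in NP-IWP2 (1 of 9 against 8.98%), and CYP26A1, RARB and RARG in passaged cells (3 of 9 against 11.8%). RARB was higher and the others were lower.

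From Day 3 to Day 5, 5 of 9 members were past the fold in NP-ctrl (12.3% of all genes), 5 in the NP-IWP2 arm (12.1%) and 4 after passaging (11.9%). RARG, CRABP1 and CRABP2 were lower in each arm. From Day 5 to Day 7 there were 3 in NP-ctrl (7.27%), 2 in the NP-IWP2 arm (7.21%) and 4 after passaging (9.12%), and DHRS3 was higher and CRABP1 lower in each arm. From Day 7 to Day 10 there was 1 member in each arm, against 6.03% of all genes (NP-ctrl), 6.67% (NP-IWP2) and 7.17% (passaged). It was CYP26A1 (NP-ctrl), CRABP2 (NP-IWP2) and CRABP1 (passaged), lower on Day 10 each time.

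The arms were then compared on each day. Both unpassaged arms are set against the same passaged libraries, and both NP-IWP2 and passaged cells against the same NP-ctrl libraries, so these comparisons are not independent of each other. Between passaged cells and NP-ctrl, 1 of 9 members was past the fold at Day 3 (8.49% of all genes), 2 at Day 5 (8.16%), 4 at Day 7 (12.6%) and 4 at Day 10 (17.4%). CYP26A1 was lower on Day 3 and Day 7, STRA6 lower on Day 7 and Day 10, CRABP1 lower on Day 10, and RARB and CRABP2 higher on Day 5, Day 7 and Day 10. Between passaged cells and NP-IWP2, 1 member was past the fold on each day, against 8.7%, 7.51%, 6.69% and 10.1% of all genes, which is near the share of all genes. It was CYP26A1 on Day 3, RARB on Day 5 and Day 7, and CRABP2 on Day 10. Between NP-IWP2 and NP-ctrl there was 1 at Day 3 (4.15%), 0 at Day 5 (2.97%), 2 at Day 7 (7.26%) and 1 at Day 10 (9.35%). They were CYP26A1 on Day 3, STRA6 and CRABP2 on Day 7, and RARB on Day 10.

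**Figure D3:**
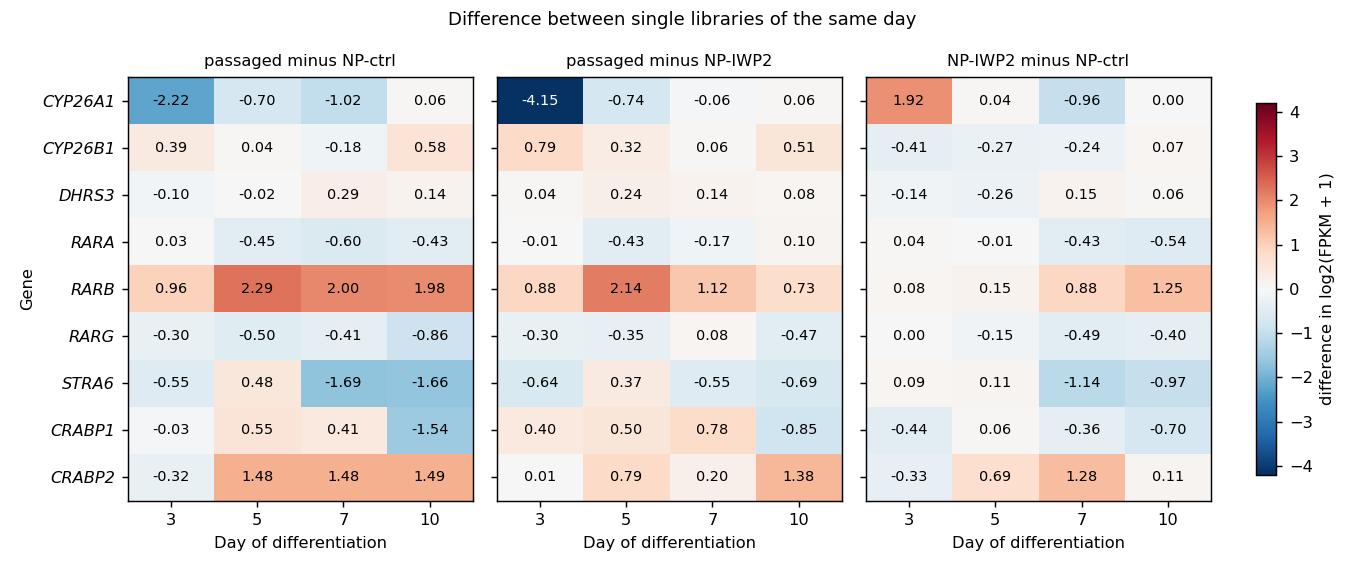
Differences in log2(FPKM + 1) between single libraries of the same day, with genes in rows and days in columns, for passaged minus NP-ctrl, passaged minus NP-IWP2 and NP-IWP2 minus NP-ctrl (red higher, blue lower). CYP26A1 on Day 3 differs by -2.22, -4.15 and 1.92, the widest differences in both panels with NP-IWP2, RARB on Day 5 is the widest in passaged minus NP-ctrl at 2.29, and RARB is red in all 4 columns of the first and second panels.

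The last comparison asked which differences between arms held from day to day. The arm effect was fitted with edgeR over the 12 libraries of Day 3 to Day 10, with day as a block, across all 21206 genes. The p-values measure the spread of arm differences between days of 1 series of cultures, not between separate differentiations. RARB was the member that passed in passaged cells against NP-ctrl. It rose by 2.39 on the log2 scale (SE 0.39), which is 5.25-fold, with an edgeR adjusted p of 0.00791, and it was higher on 4 of 4 days. Thus 1 of 9 members passed the adjusted p of 0.05 against 4.4% of all genes, and 5 of 9 against 19.2% had an unadjusted p under 0.05.

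The RARB call did not hold in every setting. Its edgeR adjusted p was 0.0701 with only the arms compared in the fit, 0.0632 without Day 5 and 0.088 without Day 7, and over the 10 alternatives it ranged from 7.76e-11 to 0.088, with 7 of 10 under the threshold. Its fitted change was between 1.81 and 2.9 in all of them.

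The other members did not pass in the main edgeR fit of passaged cells against NP-ctrl. The members called by edgeR differed with the days used. Without Day 5 the member called was STRA6, against 1.33% of all genes. Without Day 3 they were CRABP2 and RARB, against 11.2%. DESeq2 called 4 of 9 members against 12% of all genes, RARB, RARG, STRA6 and CRABP2, and edgeR with no filter called 4 of 9 against 6.2%, RARB, CYP26A1, STRA6 and CRABP2. CYP26A1 had the widest fitted change, -3.86 (SE 1.29, edgeR adjusted p 0.12). RARG was lower on 4 of 4 days, with a fitted change of -0.64 (SE 0.18, edgeR adjusted p 0.0684). CRABP2 had 1.1 (SE 0.35, edgeR adjusted p 0.102), STRA6 -0.97 (SE 0.33, edgeR adjusted p 0.133) and RARA -0.36 (SE 0.17, edgeR adjusted p 0.275). The fitted changes of CYP26B1, DHRS3 and CRABP1 were 0.7 (SE 0.51), 0.14 (SE 0.23) and -0.11 (SE 0.41), with edgeR adjusted p of 0.523, 0.806 and 0.933.

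In passaged cells against NP-IWP2, 0 of 9 members passed with edgeR, against 1.33% of all genes, and 3 of 9 had an unadjusted p under 0.05 against 12.9%. One of the 3 was CYP26B1, which reached the FPKM of 1 that the filter asked for only in passaged cells on Day 3, the arm where it was higher, so its place in these counts is no support for a difference. DESeq2 called 2 of 9 members, RARB and CYP26B1, against 5.08% of all genes, and limma called 0. DESeq2 was run on the same filtered genes, so the limit on CYP26B1 holds for its call there too. RARB had a fitted change of 1.51 (SE 0.37, edgeR adjusted p 0.0906), CYP26B1 one of 1.9 (SE 0.53, edgeR adjusted p 0.135) and CYP26A1 one of -4.25 (SE 1.36, edgeR adjusted p 0.196). RARB, CYP26B1, DHRS3 and CRABP2 were higher in passaged cells on 4 of 4 days. In NP-IWP2 against NP-ctrl, 0 of 9 members passed with edgeR, DESeq2 or limma, against 0.0189% of all genes with edgeR, and 2 of 9 had an unadjusted p under 0.05 against 4.76%. These were RARB with a fitted change of 0.88 (SE 0.38, edgeR adjusted p 0.973) and CYP26B1 with -1.2 (SE 0.53, edgeR adjusted p 0.973).

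**Figure D4:**
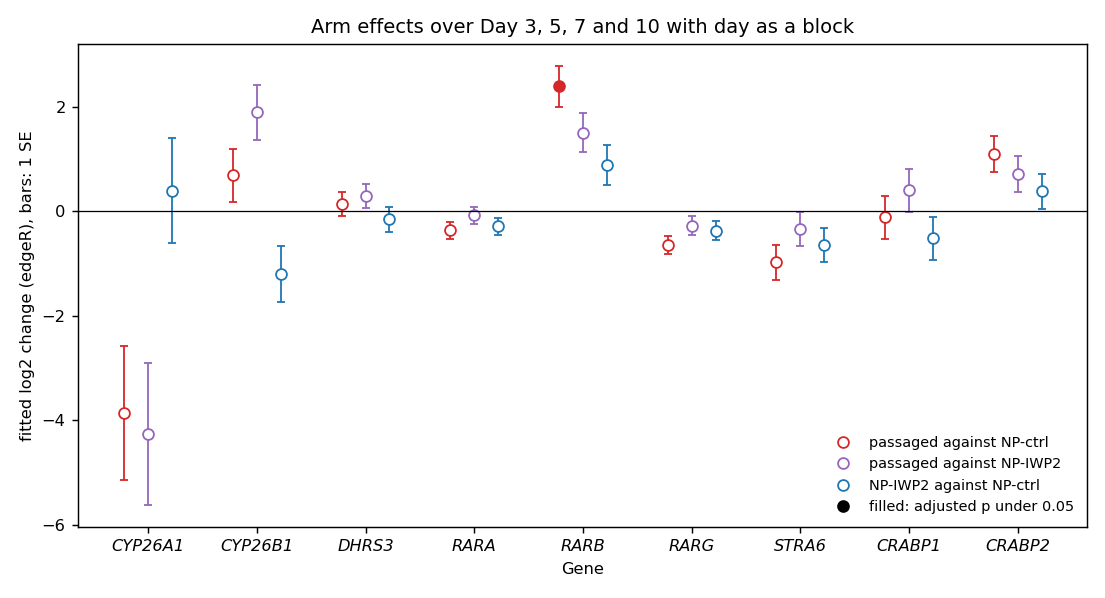
Fitted log2 change of each member between arms over Day 3 to Day 10, with bars of 1 SE, for passaged against NP-ctrl (red), passaged against NP-IWP2 (purple) and NP-IWP2 against NP-ctrl (blue). The filled point, RARB in passaged cells against NP-ctrl at 2.39, is the only one with an adjusted p under 0.05, and the bars of CYP26A1 are the widest.

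By role, then, the fit over days called 0 of 3 enzymes, 1 of 3 receptors and 0 of 3 uptake and binding proteins in passaged cells against NP-ctrl, where 4.4% of all genes were called. The median fitted change was 0.14 for the enzymes, -0.36 for the receptors and -0.11 for the uptake and binding proteins, beside -0.0025 for all genes tested. A direction shared by all members of a class was not seen, since each class held at least 1 member fitted higher and 1 fitted lower.

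Genes around the members were taken from lists of retinoid carriers, synthesis enzymes, RXR receptors and cofactors, and response genes, 67 genes in all, of which 51 passed the filter. The synthesis enzymes held the difference nearest to that of RARB. ALDH1A2, the main retinoic acid synthesising enzyme of the early embryo, had an FPKM of at most 0.06 up to Day 2. Its Day 3 level was 1.06 (NP-ctrl), 0.5 (NP-IWP2) and 3.04 (passaged), on Day 5 0.53, 0.86 and 9.28, on Day 7 0.14, 0.11 and 0.8, and on Day 10 0.23, 0.15 and 0.19. As with RARB, passaged cells on Day 5 were the highest library, 17.4-fold above NP-ctrl (13.6 to 22.5) and 10.8-fold above NP-IWP2 (8.77 to 13.4). Unlike RARB, the arms lay within counting error on Day 10. Over days ALDH1A2 rose in passaged cells against NP-IWP2, by 2.62 on the log2 scale (SE 0.54, edgeR adjusted p 0.042), a call made in 4 of 10 alternatives. Against NP-ctrl it had 2.14 (SE 0.54, edgeR adjusted p 0.0512). Across the 15 libraries, Pearson's r of log2(FPKM + 1) between RARB and ALDH1A2 was 0.83, a description of libraries that share their first 3 days and their day of collection.

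ALDH1A1, an enzyme of the same step, had the opposite order. On Day 7 its FPKM was 7.33 (NP-ctrl), 5.81 (NP-IWP2) and 0.31 (passaged), and by Day 10 it stood at 17, 13.1 and 0.44. It fell by 5.17 on the log2 scale in passaged cells against NP-ctrl (SE 0.61, edgeR adjusted p 0.00127), and fell by 4.39 against NP-IWP2 (SE 0.60, edgeR adjusted p 0.00717). It reached the FPKM of 1 that the filter asked for only in NP-ctrl and NP-IWP2, the arms where it was higher. Its calls and its place in the counts below are thus no support for a difference. ALDH1A3 was between 2.16 and 2.96 up to Day 2 and at or under 0.17 from Day 5 on in every arm. RDH10, which makes retinaldehyde from retinol, was at 3.11 on Day 2 and on Day 3 at 35 (NP-ctrl), 19 (NP-IWP2) and 49.8 (passaged). On Day 5 these were 31, 15 and 23.8, on Day 7 17.5, 14.2 and 8.48 and on Day 10 14.2, 10.2 and 19.2, so that passaged cells were highest on Day 3 and Day 10 and lowest on Day 7. Its fitted change against NP-ctrl was -0.0089 (SE 0.28, edgeR adjusted p 1). Of the 20 synthesis genes 13 passed the filter. In passaged cells 0 rose and 1 fell against NP-ctrl, where 4.4% of all genes were called. Against NP-IWP2 1 rose and 1 fell, where 1.33% of all genes were called. The median fitted change of the 13 was -0.01 and 0.29 in these comparisons.

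Carriers of retinol in blood separated the arms late. RBP4 had an FPKM on Day 10 of 308 (NP-ctrl), 69 (NP-IWP2) and 0.27 (passaged), and TTR, its partner in plasma, 253, 62 and 0.18. In passaged cells against NP-ctrl, RBP4 fell by 7.56 on the log2 scale (SE 0.81, edgeR adjusted p 0.000877) and TTR fell by 7.27 (SE 1.27, edgeR adjusted p 0.0154), calls made in 8 and 5 of 10 alternatives. Against 4.4% of all genes called, these were the 2 called of the 11 carrier and storage genes tested, whose median fitted change was -0.74. TTR reached the FPKM of 1 that the filter asked for only in NP-ctrl and NP-IWP2, where it was higher. Its call and its place in this count are thus no support for a difference. RBP4 and TTR are known products of the liver and yolk sac. Of the hepatic markers AFP, APOA1, APOA2, APOB, ALB and HNF4A all but ALB had the same order of arms on Day 7 and Day 10. ALB was at 0.81 (NP-ctrl), 3.71 (NP-IWP2) and 3.19 (passaged) on Day 7 and 5.28, 5.24 and 2.78 on Day 10. The summed FPKM of the hepatic markers on Day 10 was 3935 in NP-ctrl with 6 of 6 at an FPKM of at least 1, 1172 in NP-IWP2 with 5 of 6, and 22 in passaged cells with 3 of 6 and APOA2 at 0 counts. The part of this in the levels of RBP4, TTR and ALDH1A1 was not tested.

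**Figure D5:**
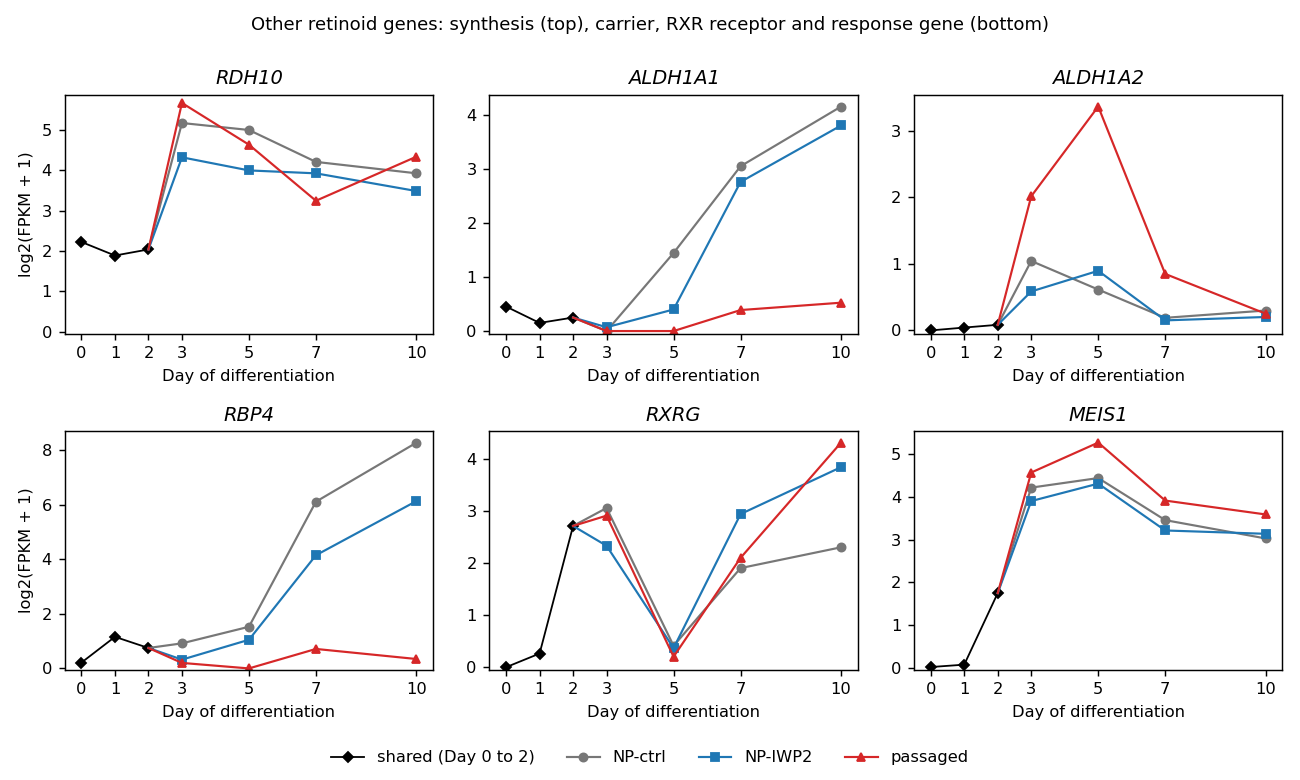
Levels of 6 retinoid genes outside the 9 members as log2(FPKM + 1) against day of differentiation, 1 point per library, with the shared libraries in black and the arms in grey (NP-ctrl), blue (NP-IWP2) and red (passaged). ALDH1A2 stands highest in passaged cells on Day 3 and Day 5, and ALDH1A1 and RBP4 stay near 0 in passaged cells up to Day 10.

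The partners of the receptors differed less. Of 10 RXR receptors and cofactors, all tested, 0 were called in any comparison of arms by edgeR. The share of all genes called was 4.4% in passaged cells against NP-ctrl, 1.33% against NP-IWP2 and 0.0189% in NP-IWP2 against NP-ctrl. RXRA was between 5.54 and 14.2 and RXRB between 5.58 and 13.7 in every library. RXRG, the RXR receptor known from heart and skeletal muscle, was at 0 on Day 0 and 5.58 on Day 2, at most 0.33 in all arms on Day 5, and on Day 10 at 3.95 (NP-ctrl), 13.4 (NP-IWP2) and 19 (passaged). On Day 10 passaged cells were 4.81-fold above NP-ctrl (4.02 to 5.79). On Day 7 it was at 2.75 (NP-ctrl), 6.71 (NP-IWP2) and 3.3 (passaged), so NP-IWP2 was highest. The summed cardiomyocyte markers had the order of RXRG on Day 10 and not on Day 7, as given above, and their part in the RXRG level was not tested.

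Genes known to respond to retinoic acid did not move one way. Of 25 on the list 17 passed the filter. In passaged cells against NP-ctrl 1 was called higher and 6 lower, where 4.4% of all genes were called. By fitted change 5 of the 17 were higher, with a median of -1.32 beside -0.0025 for all genes tested. MEIS1, a homeobox gene that retinoic acid induces, rose by 0.63 on the log2 scale against NP-ctrl (SE 0.15, edgeR adjusted p 0.0372) and by 0.82 against NP-IWP2 (SE 0.15, edgeR adjusted p 0.0264). Its FPKM on Day 5 was 20.8 (NP-ctrl), 18.9 (NP-IWP2) and 37.7 (passaged). HOXB3, HOXB4 and HOXB5, which pattern the trunk, had log2 changes of -1.97 (SE 0.39), -3.46 (SE 0.52) and -4.48 (SE 0.97) against NP-ctrl and so fell, with edgeR adjusted p of 0.0189, 0.00522 and 0.0268. RARRES2, which encodes the adipokine chemerin, fell by 1.60 (SE 0.27, edgeR adjusted p 0.00928). HOXB1 was also called lower and stood at an FPKM of at most 1.05 in every library. Against NP-IWP2 1 response gene rose and 2 fell, where 1.33% of all genes were called. MEIS1 was the higher one and TBX5 was among the lower. TBX5, a transcription factor of the heart, had an FPKM on Day 10 of 19 (NP-ctrl), 34.9 (NP-IWP2) and 5.43 (passaged), and fell by 2.33 on the log2 scale in passaged cells against NP-IWP2 (SE 0.39, edgeR adjusted p 0.0205). HOXB2, TGM2 and NR2F2 were not called by edgeR in any comparison of arms, and at most 3 of 10 alternatives called them in a comparison. Each call just named was made in 4 to 10 of 10 alternatives. Transcripts of neighbouring genes overlap in the HOXB cluster, so their reads may be divided differently under another counting. Passaged cells also had the lower summed markers of stroma (91.5 against 4066 in NP-ctrl on Day 10), epicardium (34.4 against 325, most of both from KRT19) and hepatic endoderm (22 against 3935). The part of these in the HOXB and RARRES2 levels was not tested.

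The members were also compared with each other and with all other protein-coding genes over the 15 libraries, by Pearson's r of log2(FPKM + 1). All these values share the same libraries, days and depth and are descriptions. RARG went with CRABP1 (0.88), with CYP26A1 (0.79) and with CRABP2 (0.76), and CRABP1 went with CRABP2 (0.77). RARA ran against CRABP2 (-0.71) and DHRS3 against CRABP1 (-0.75). RARB had its highest r with CYP26B1 (0.45), and STRA6 with CYP26A1 (0.34). Among 7295 protein-coding genes that reached an FPKM of 10, the genes most like CYP26A1 were ARHGAP40 (0.96), TBX6 (0.95) and CD177 (0.92). TBX6 is a transcription factor of presomitic mesoderm and is one of the primitive streak and early mesoderm markers above. Those most like RARB were SH3KBP1 (0.93), NUB1 (0.90) and FGF10 (0.87), the last a growth factor of second heart field and lung. For RARG they were ENPP1 (0.96), PLCXD1 (0.95) and NTS (0.95), and for RARA they were STAC (0.97), MAMDC2 (0.95) and PLAT (0.94). CRABP1 had the closest matches, NUDT1 (0.99) and KDM1A (0.98), and CRABP2 had MPND, C9orf40 and UCK1 (each 0.93). Those of DHRS3 were PNKD (0.90), SDC2 (0.89) and SH3GL3 (0.88), and those of STRA6 were PIP5K1A (0.85), LMBR1L (0.83) and RESF1 (0.83). CYP26B1 had the loosest, ARFGAP2 (0.79) and GPC1 (0.77).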

How the data were processed

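The authors trimmed the reads with Cutadapt (1.9.1), aligned them with HISAT2 (2.0.1) to hg38 and counted them per Ensembl gene with HTSeq (0.6.1). The deposited counts are whole numbers, and the deposited FPKM values are these counts divided by exonic length and library total (recomputed to within 0.005). The annotation release, strand setting and a check for multi-mapped reads are not given in the sources used here. The library kit on the labels (SMRTbell) is one for long reads and the tools are for short reads, so scaling by length carries that doubt. Identical positions in GENCODE release 44 were found for 93.7% of 60463 matched genes. RARB is one whose positions differ, and those given are of the deposited table. No column was left unmapped to a sample.

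Groups came from the sample titles. The test took the 21206 genes whose FPKM reached 1 in any of 15 libraries. Arm effects were fitted on the counts of 12 libraries with edgeR (4.0.16, R 4.3.3), quasi-likelihood test, TMM normalization, day as a block and Benjamini-Hochberg adjustment over all genes tested. The study's methods name DESeq2, and DESeq2 (1.42.0), limma (3.58.1) on log2(FPKM + 1) or log2(FPKM + 0.1), another normalization, no filter, only the arms compared and leaving out each day were alternatives. The fit was tested on simulated data. Single libraries were compared as FPKM ratios with exact (Clopper-Pearson) 95% intervals, which cover counting error only, PCR copies not being independent molecules. The floor was 3 counts per library.

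The members and gene lists were chosen with earlier results of these data known. All 9 members are named. Other retinoid genes are named if their FPKM reached 10 and they passed in a comparison of arms or differed by at least 1 on 2 or more days, and ALDH1A1 to ALDH1A3, RDH10, RBP4, CYP26C1 and the RXR genes regardless. HOXB1 was named after its values were seen. For likeness, the 3 genes with the highest Pearson's r were taken. Some genes that these rules select are not reported here.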

Additional observations from a re-analysis of the deposited data

How the results depend on the processing

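Arms were paired by day in the edgeR fit, with day as the block. The labels carry no replicate numbers, so no other pairing was made. Of the 270 fitted changes of members under alternatives, 4 reversed, none of which was called: CRABP1 in passaged cells against NP-ctrl ranged from -0.40 to 0.33 when 1 day was left out (0.33 without Day 10), RARA against NP-IWP2 from -0.20 to 0.063 (0.063 without Day 5) and CYP26A1 in NP-IWP2 against NP-ctrl from -0.97 to 1.09 (-0.97 without Day 3), and CRABP1 in passaged cells against NP-IWP2 was -0.072 with limma at a pseudocount of 0.1. None of the single-library differences of members past the fold reversed. Of all such differences checked under the alternatives, whether past the fold or not, 376 stayed within counting error and 83 moved beyond it.

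The number of genes called depended on the tool. For passaged cells against NP-ctrl it was 933 with edgeR, 2150 with DESeq2, 163 and 222 with limma at pseudocounts of 1 and 0.1, 2571 without the filter, 109 with only the arms compared, and 133 to 2373 when 1 day was left out. Against NP-IWP2 it was 282, 886, 6 and 21, 1368, 163, and 13 to 675. For NP-IWP2 against NP-ctrl it was 4, 59, 0 and 0, 372, 277, and 0 to 35. The members called in passaged cells against NP-ctrl were 1 with edgeR, 4 with DESeq2, 4 without the filter, 0 with only the arms compared, and 0 to 2 when 1 day was left out. Against NP-IWP2 they were 0, 2, 3, 1, and 0 to 1. The cause was not tested. Over the 4 days, members past the fold numbered 4 in passaged cells against NP-IWP2 (9 with TPM, 11 with a pseudocount of 0.1) and 4 in NP-IWP2 against NP-ctrl (8 and 10). With 4 days of 1 series, the depth limits CYP26A1 after Day 5, CYP26B1, and CRABP1 in passaged cells on Day 10.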
